A study of Homo sapiens with 10 samples.

Results

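The 2 L101P libraries of this series came from A549 cells that carry the ABCA3 variant L101P, 1 grown without vector and 1 exposed overnight to lentivirus encoding an ABCA3-GFP fusion (multiplicity of infection 20). A549 is an established human lung adenocarcinoma line. The genes described here were chosen by their change between these 2 libraries: a mean of at least 10 CPM (counts scaled by TMM library size) over the 10 libraries of the series, and a change of 2-fold or more. Of 9459 rows at that level, out of 33551 in the table, 51 met the rule, namely 50 human genes and the row for EGFP, the green fluorescent protein of the vector. The other 8 libraries were an untreated and an equally transduced library of wild-type A549 cells (WT), of a line whose label says ABCA3 knockout (KO), and of lines with the variants E292V and E690K. Each line and treatment had 1 library, and the labels do not say how many clones stand behind a line. The change that chose the genes therefore has no replicate error and is given as a description, and tests were run on the other 8 libraries. Those 8 took no part in the fold change but did enter the mean of 10 CPM, through which PXDN and 5 of the 6 lower genes were admitted. The transduced L101P library entered that mean too, which favoured the admission of genes that were high in it.

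ABCA3 loads phospholipid into the lamellar bodies of alveolar type 2 cells, the organelles that hold surfactant before it is secreted. Airway and gastrointestinal mucosa contain another secretory cell, the goblet or mucous cell, which makes gel-forming mucins such as MUC5AC and MUC5B, the trefoil peptide TFF1 that is packed with them, and AGR2, a protein disulfide isomerase of the endoplasmic reticulum needed for mucin folding. Lung adenocarcinoma lines can express genes of both kinds of cell.

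The total count of untreated L101P was 59430095 and that of transduced L101P 96811421, the lowest and the highest of the 10. With the deeper library thinned at random to the total of the shallower, 50 rows met the rule and 49 of them were among the 51. In the pair labelled KO the ABCA3 and EGFP rows ran against the labels: ABCA3 was at 600 CPM in the library labelled untreated and 26.0 CPM in that labelled transduced, and EGFP at 37.9 and 0.0497 CPM. Neither row is specific to transduced libraries in this series, but in the pairs of the other 3 lines outside L101P both were higher in the transduced library. Each direction taken from the KO pair follows its labels. Mitochondrially encoded genes took 4.82% and 4.59% of the counts in untreated and transduced L101P, within the 4.27% to 5.71% of the series. The L101P libraries were 0.239 apart (root mean square difference of log2(CPM + 1) over the 9459 rows), where the pairs of the other 4 lines were 0.108 to 0.180 apart. The nearest library to untreated L101P was untreated KO, at 0.166, and the nearest to transduced L101P was the library labelled KO transduced, at 0.197. Without the 51 rows the L101P distance was 0.212. Even so it was above the distances of the other 4 pairs over all rows.

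Of the 51 rows, 45 were higher in the transduced library (0.476% of the 9459) and 6 were lower (0.0634%). The same rule applied to the other pairs gave 8 rows in WT, 7 in KO, 19 in E292V and 0 in E690K. These values carry counting error only: a 95% interval on the number of read pairs did not include a log2 change of 0 for any of the 50 human genes, and lay wholly beyond 2-fold for 31 of them. Just inside the limit stood CDH17, ANXA13 and CD38 with log2 changes of 1.01, and SUSD2 (12.8 and 6.38 CPM), ZNF462 (log2 change -1.02) and RSPO3 (-1.11). Just outside stood CFD (1.00 after rounding), GLP2R (0.99) and FIBCD1 (0.98), and ADAM19 (-0.97), LTB4R (-0.90) and CPS1 (-0.90).

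**Figure D1:**
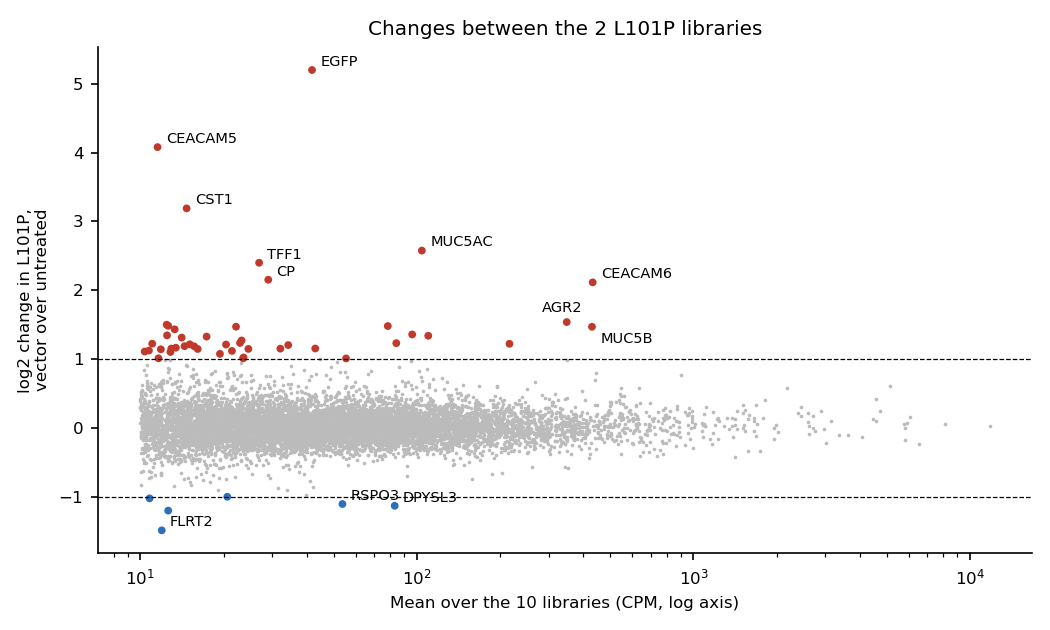
Log2 ratio of transduced over untreated L101P (vertical axis) against the mean level over the 10 libraries in CPM (horizontal log axis) for the 9459 rows with a mean of at least 10 CPM; 1 library a side, red points at least 2-fold higher, blue points at least 2-fold lower, dashed lines at 2-fold. The 45 higher rows reach 5.20 for EGFP and 4.08 for CEACAM5, and the 6 lower rows reach -1.49 for FLRT2.

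EGFP had the largest change of the 51. It was at 60 counts (1.01 CPM) in untreated and 3474 counts (36.9 CPM) in transduced L101P, a log2 change of 5.20 with a counting interval of 4.68 to 5.72. In the libraries labelled untreated and transduced it was at 69.7 and 151 CPM in WT, 37.9 and 0.0497 in KO, 20.2 and 66.0 in E292V, and 16.5 and 18.5 in E690K. The row was thus well above 0 in the untreated libraries of the other 4 lines, and untreated WT and untreated KO exceeded transduced L101P. ABCA3 (ENSG00000167972.13, chromosome 16) was at 1151 CPM in the untreated and 922 CPM in the transduced L101P library, a log2 change of -0.32 (counting interval -0.34 to -0.30). Its count does not separate transcripts of the endogenous gene from those of the vector. A row for tdTomato, a red fluorescent protein whose purpose the labels do not give, was at 12.7 and 5.76 CPM. The surfactant protein genes were close to or at 0 in both libraries: SFTPA1 had 0 and 11 counts, SFTPA2 0 and 0, SFTPB 2 and 12, SFTPC 20 and 0, and SFTPD 14 and 32.

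The 44 human genes that were higher included 8 of the 31 genes of a goblet-cell list. Of the 31, 12 reached the mean of 10 CPM, and these 12 were higher in the transduced library, 8 of them by 2-fold or more, as 0.476% of all rows were. Their median log2 change was 1.48, against 0.02 over the 9459 rows. The 8 were CEACAM5, MUC5AC, TFF1, CEACAM6, AGR2, FCGBP, MUC5B and MUC13. The other 4 were less than 2-fold higher and comprised SPDEF (log2 change 0.31), the transcription factor of goblet-cell differentiation, FOXA3 (0.49), GALNT5 (0.58) and GCNT3 (0.60). The list was drawn up with earlier results of these data known, so its count is no independent evidence. The mean of 10 CPM also included the transduced L101P library, which favoured genes high there. CEACAM5, for instance, had a mean of 11.5 CPM, where the median of the other 8 libraries was 6.13 CPM. In bulk RNA, more cells that express these genes and more RNA per cell cannot be told apart.

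MUC5AC, a gel-forming mucin of airway and stomach (ENSG00000215182.8, chromosome 11, 1157953 to 1201138), was at 77.1 CPM in untreated and 460 CPM in transduced L101P, 5.96-fold higher. It was at 13.9 and 21.5 CPM in untreated and transduced WT, 64.7 and 180 CPM in KO, 17.1 and 10.3 CPM in E292V, and 105 and 93.8 CPM in E690K. The transduced L101P library thus had the highest MUC5AC level of the 10, while untreated L101P was exceeded by the library labelled KO transduced and by both E690K libraries. MUC5B, the neighbouring gel-forming mucin 21.9 kb away on the same strand, went from 446 to 1233 CPM, 2.77-fold higher. In the other 8 libraries MUC5B ranged from 88.3 CPM in transduced E292V to 626 CPM in the library labelled KO transduced, with a median of 318 CPM. Both mucin genes are long and repetitive, and how the authors' counting treated reads shared by similar genes is not stated.

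TFF1, the trefoil peptide secreted with MUC5AC (ENSG00000160182.2, chromosome 21, 42362282 to 42366594), was 5.28-fold higher, at 20.7 and 109 CPM. Its levels were 2.78 and 2.55 CPM in the WT libraries, 17.6 and 35.8 in KO, 1.93 and 0.645 in E292V, and 38.3 and 39.1 in E690K. AGR2, the mucin-folding isomerase, was 2.90-fold higher, at 314 and 910 CPM, against 162 to 464 CPM in the other 8 libraries. For TFF1 and AGR2 the transduced L101P library lay above each of the other 9, and the untreated one lay within the range of the other 8. FCGBP, a mucus protein that binds to mucins, went from 13.7 to 38.4 CPM, and MUC13, a membrane mucin, from 50.3 to 112 CPM.

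**Figure D2:**
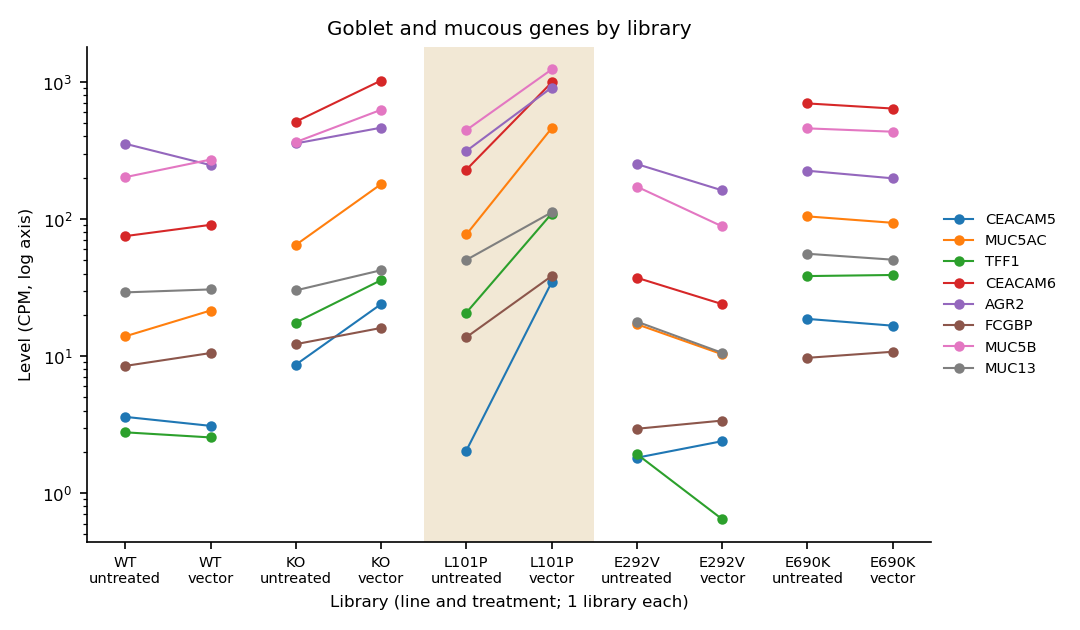
Levels in CPM (vertical log axis) of the 8 goblet and mucous genes of the set in each of the 10 libraries (horizontal axis, 1 library for each line and treatment), with lines joining the libraries of a line and shading on L101P. All 8 are higher in the transduced library of the L101P pair and of the pair labelled KO, they are nearly level in E690K, and 6 of them are lower in transduced E292V.

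CEACAM5, the carcinoembryonic antigen (ENSG00000105388.15, chromosome 19, 41708585 to 41729798), had the largest change of the human genes, 16.9-fold. It was at 2.04 and 34.5 CPM in L101P and stood at 3.60 and 3.10 CPM in WT, 8.65 and 23.9 in KO, 1.81 and 2.39 in E292V, and 18.7 and 16.7 in E690K. Untreated L101P was thus at the level of WT and E292V for CEACAM5, and transduced L101P was above each of the other 9 libraries. CEACAM6, a related adhesion molecule 21.2 kb away (ENSG00000086548.8), was 4.33-fold higher, at 229 and 991 CPM. In CEACAM6 the library labelled KO transduced was higher still, at 1024 CPM, and the other 7 libraries ranged from 23.9 CPM in transduced E292V to 697 CPM in untreated E690K.

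The sequences before the RefSeq starts of these 2 neighbouring adhesion genes and of AGR2 are shown because the genes were higher together and have an entry in the RefSeq promoter table (GRCh38.p14). Each is the 250 bases before the start annotated there, which differs from the outermost start in GENCODE 29, so that each window lies partly or wholly inside the GENCODE gene, 5′ to 3′ on the gene's own strand, and capitals mark matches on either strand to the TATA box TATAAA, the forkhead core TGTTTAC, the AP-1 site TGANTCA, the cyclic AMP response element TGACGTCA, the E-box CACGTG, the GC box GGGCGG and the oestrogen response element by its name alone. The windows lie at chr19:41708376-41708625 (plus strand), chr19:41755280-41755529 (plus strand) and chr7:16805000-16805249 (minus strand).
CEACAM5: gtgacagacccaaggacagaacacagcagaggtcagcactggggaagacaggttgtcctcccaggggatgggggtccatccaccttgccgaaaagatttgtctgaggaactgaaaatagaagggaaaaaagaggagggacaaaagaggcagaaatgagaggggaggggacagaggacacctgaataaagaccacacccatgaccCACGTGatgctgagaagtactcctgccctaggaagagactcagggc
CEACAM6: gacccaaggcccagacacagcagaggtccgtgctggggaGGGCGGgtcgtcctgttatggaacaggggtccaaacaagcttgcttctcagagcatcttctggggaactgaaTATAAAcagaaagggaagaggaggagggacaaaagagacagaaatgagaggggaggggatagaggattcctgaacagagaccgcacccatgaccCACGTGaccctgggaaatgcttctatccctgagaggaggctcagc
AGR2: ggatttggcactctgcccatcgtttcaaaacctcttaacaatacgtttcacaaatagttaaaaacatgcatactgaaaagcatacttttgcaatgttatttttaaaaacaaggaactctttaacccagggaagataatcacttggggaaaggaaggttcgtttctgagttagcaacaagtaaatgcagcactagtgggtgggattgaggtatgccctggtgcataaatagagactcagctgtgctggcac
The 2 CEACAM windows matched at 190 of their aligned bases (78.5% of the aligned pairs, with 52 mismatches and 16 gapped positions), and both hold CACGTG at nearly the same distance from the start. The CEACAM6 window also holds TATAAA and GGGCGG, and the AGR2 window holds none of the 7 motifs.

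Of the 44 higher human genes, 28 had a promoter entry. The AP-1 letters TGANTCA were found in 6 of these 28 windows (21.4%), against 3.3% of the 7622 windows of genes at the same mean level and 6.6% of all 35116 windows in the table. These shares are for a loose pattern in which N is any base. It was A in PRSS3, T in CLDN2 and G or C in the others. The 6 sites are shown with 10 bases on each side and the site in capitals, 5′ to 3′ on the gene's strand, because this motif is the one whose share lay farthest above that of the level-matched genes by ratio. On GRCh38.p14 they lie at chr9:114792634-114792660 for TNFSF15 (minus strand), chr9:33795378-33795404 for PRSS3 (plus strand), chr11:102530798-102530824 for MMP7 (minus strand), chrX:106900094-106900120 for CLDN2 (plus strand), chr13:77535647-77535673 for SCEL (plus strand) and chr3:124934913-124934939 for MUC13 (minus strand).
TNFSF15: ctctttcttcTGAGTCAccctgtcctt
PRSS3: ttatcacctgTGAATCAcaaacccaca
MMP7: aacactcaaaTGAGTCAcctatttcca
CLDN2: atttttctccTGATTCAtctcatgcca
SCEL: cctccctgagTGACTCAgccgctgagc
MUC13: ttttgggcttTGAGTCAgaaaaatgat
GGGCGG was found in 9 of the 28 windows (32.1%) against 70.0% at the same level, TATAAA in 3 (10.7% against 4.6%) and TGACGTCA in 3 (10.7% against 3.2%). The 28 windows held a median of 4.5 CG pairs and the 7622 a median of 22. These shares describe letters in a 250-base window and were not tested.

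Proteases and protease inhibitors formed a second group of the higher genes. CST1, a secreted cystatin that inhibits cysteine proteases, was 9.12-fold higher, at 7.02 and 64.0 CPM, against 1.53 to 17.6 CPM in the other 8 libraries. MMP7, a small secreted metalloprotease of glandular epithelium, went from 96.3 to 243 CPM, and its other 8 values ran from 59.5 to 146 CPM. SLPI, an inhibitor of neutrophil elastase that is also on the alveolar list, went from 10.3 to 26.1 CPM, and PRSS3, a trypsinogen, from 13.0 to 34.9 CPM. In these 4 genes the transduced L101P library was the highest of the 10, as it was in 19.6% of all rows. The genes were chosen for being higher in that library. CST1 and PRSS3 belong to families of similar genes, which makes their counts uncertain.

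Keratin and cornified-cell genes numbered 5, with log2 changes of 1.21 to 1.31. KRT19, a keratin of simple epithelium, went from 203 to 473 CPM, beyond the 61.6 to 305 CPM of the other 8 libraries. KRT15, the single gene of the 30-gene stratified and squamous list that reached 10 CPM, went from 11.6 to 28.8 CPM, while 14 genes of that list had 0 counts in both L101P libraries. KRT4 and SCEL, both of squamous epithelium, went from 14.7 to 34.1 and from 7.94 to 18.5 CPM, and TRIM29 from 23.3 to 56.1 CPM. Apart from the CEACAM genes, the adhesion and junction genes were CDH17, a cadherin of intestinal epithelium (66.2 to 133 CPM), CLDN2, a claudin of leaky tight junctions (21.1 to 49.6 CPM), and LSR, a protein of tricellular junctions (20.0 to 46.0 CPM).

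A further 12 higher genes encode other secreted or matrix proteins. CP, the copper-carrying ferroxidase ceruloplasmin, was 4.45-fold higher, at 16.3 and 72.6 CPM. It was at 26.6 and 18.8 CPM in WT, 31.8 and 35.4 in KO, 32.3 and 28.1 in E292V, and 15.2 and 13.1 in E690K, so that only transduced L101P left the range of 13.1 to 35.4 CPM. IGFBP3, a carrier of insulin-like growth factors, went from 69.4 to 193 CPM, and TNFSF15, a cytokine of the tumour necrosis factor family, from 12.8 to 36.0 CPM. FN1, the matrix protein fibronectin, went from 60.8 to 156 CPM but was higher in transduced E292V (175 CPM). PXDN, a peroxidase that cross-links collagen IV, went from 3.79 to 7.97 CPM and entered the set through E292V, where it was at 43.1 and 77.9 CPM. The last 12 of the 44, surface receptors, enzymes and others such as CD55, CD38 and the R-spondin receptor LGR6, had log2 changes of 1.01 to 1.33.

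Of the 6 lower genes, 5 averaged under 10 CPM over the 2 L101P libraries and met the rule through other lines, RSPO3 being the exception. FLRT2, a transmembrane adhesion molecule, went from 0.955 to 0.340 CPM (log2 change -1.49, counting interval -2.37 to -0.61), with 32 counts in the transduced library. DPYSL3, a cytoskeletal protein of the collapsin response mediator family, went from 2.14 to 0.978 CPM, where WT had 65.6 and 201 CPM and E292V 105 and 444 CPM. FLRT2 and DPYSL3 thus passed the mean of 10 CPM mainly through WT and E292V. RSPO3, a secreted Wnt agonist, went from 55.7 to 25.9 CPM, and the other 8 libraries had 34.9 to 75.5 CPM. IGDCC4, ZNF462 and SUSD2 completed the group. In all 6 the transduced L101P library was the lowest of the 10, as it was in 15% of all rows. With the mean taken over the 2 L101P libraries alone, RSPO3 was the only lower gene of the set that stayed, beside 54 higher rows.

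**Figure D3:**
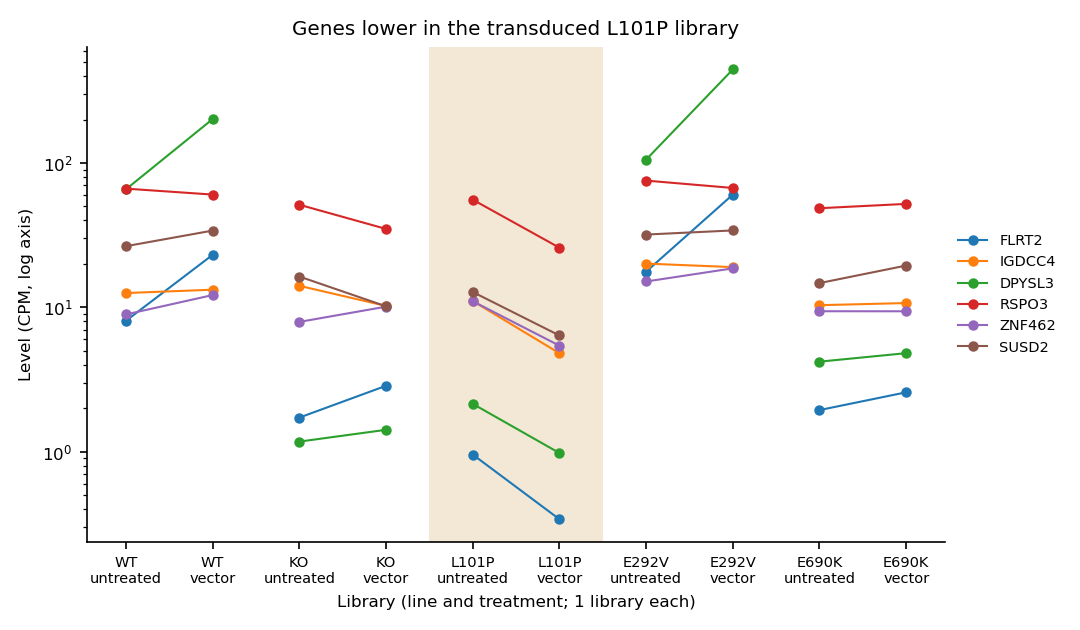
Levels in CPM (vertical log axis) of the 6 genes that were at least 2-fold lower in the transduced L101P library, in each of the 10 libraries (horizontal axis, 1 library each; lines join the libraries of a line, shading marks L101P). The transduced L101P point is the lowest of each gene's 10, and DPYSL3 and FLRT2 stand far higher in WT and E292V.

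Across the set, it was the transduced library that left the range of the series. The untreated L101P level lay within the range of the other 8 libraries for 41 of the 44 higher genes, and the transduced level was the highest of the 10 for 37. For all 9459 rows the untreated library lay within that range in 81.1% and the transduced library was the highest in 19.6%. The rule used these 2 libraries, so the counts describe the choice.

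Other gene lists held few genes past 2-fold in the L101P pair. None of the 22 p53 response genes at the level changed 2-fold, and 4 of them were higher, where 5077 of the 9459 rows were, with a median log2 change of -0.17 and values of -0.25 for CDKN1A, -0.31 for MDM2 and -0.47 for GADD45A. The interferon list had 4 genes at the level, 0 of them past 2-fold, with OAS1 at 0.94. The NF-kB, immediate early, hypoxia, NRF2, cholesterol, unfolded protein response, S phase and lysosome lists also had 0 genes past 2-fold and medians between -0.03 and 0.22. Of the alveolar type 2 list, 5 of 16 genes reached the level and SLPI passed 2-fold. The 6 epithelial markers at the level were higher in the transduced library, from KRT7 (0.24) and CDH1 (0.31) to KRT19 (1.22), and the 8 of the list summed to 10570 and 15200 CPM, beyond the 7934 to 11540 CPM of the other 8 libraries.

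**Figure D4:**
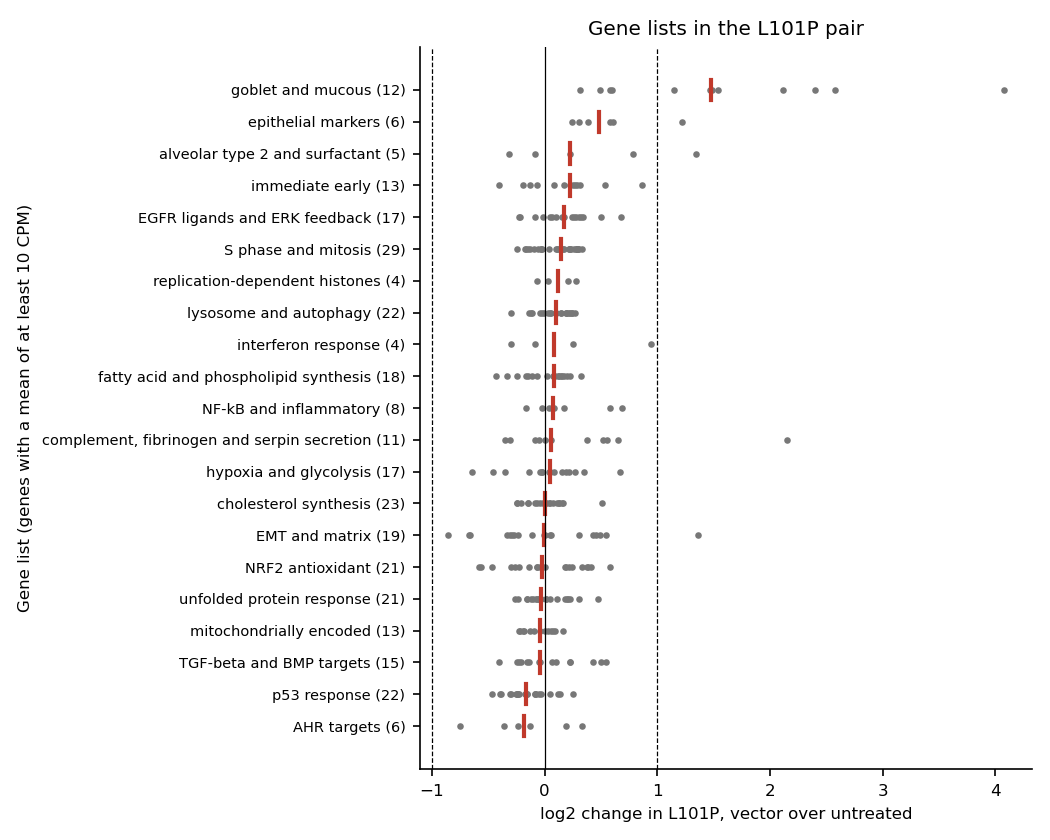
Log2 change across the L101P pair (horizontal axis) for each list with at least 4 genes at a mean of 10 CPM or more (grey points; number of genes in brackets; 1 library a side), with the list median as a red bar and dashed lines at 2-fold. The goblet and mucous list has a median of 1.48, and the other lists drawn have medians between -0.19 and 0.48.

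Endothelial and immune markers were near 0, and 2 of the 8 fibroblast markers were not. The 8 endothelial markers summed to 0.704 CPM in the untreated and 1.38 CPM in the transduced L101P library. The 8 immune markers summed to 6.15 and 8.75 CPM, with CD3E, CD3D and MS4A1 at 0 counts in both and PTPRC at 0.034 and 0 CPM. Fibroblast markers summed to 35.4 and 24.4 CPM, with COL1A2 at 0 counts in both and COL1A1 at 22.6 and 14.2 CPM.

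Whether the same genes also parted the other lines was asked of the 8 libraries of WT, KO, E292V and E690K, in a fit of line and vector from which the L101P pair was left out. Differences among the 4 lines passed an edgeR adjusted p of 0.05 for 43 of the 44 higher and 6 of the 6 lower genes. Over the 9459 rows at that level 28.6% passed, and over all 17731 rows tested 21% (3730). For PXDN and the 5 lower genes admitted through other lines, a line difference was favoured by the choice. With the level taken from the L101P libraries alone, an alternative chosen after seeing the data, 52 of 53 higher genes and the 1 lower gene passed, against 28.6% of the 9436 rows at that level. LHPP, a phosphatase, did not pass (edgeR adjusted p 0.803) and ranged only from 9.46 to 11.4 CPM in the 8 libraries. The edgeR adjusted p was 2.4e-07 for MUC5AC, 4.0e-09 for TFF1, 1.8e-07 for CEACAM5, 1.8e-10 for CEACAM6, 7.9e-05 for AGR2 and 1.4e-11 for DPYSL3. With 1 library in each cell of this fit, its error comes from how far the pairs depart from an additive model, and the p-values speak of the 4 lines sequenced, not of genotypes. Without each line's pair in turn, 45 to 49 of the 50 genes passed. Without the E292V pair TNFSF15, ZNF462 and IGDCC4 no longer passed (edgeR adjusted p 0.0754, 0.553 and 0.307). PKDCC, KRT4, SCEL and MYO1D were lost without the E690K pair, and LSR without the WT pair. DESeq2 called 46 of the 50, with FN1, SCEL and LSR lost.

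Relative to WT, both KO libraries lay above both libraries for 33 of the 44, where 26.6% of the 9459 rows did so. Both E690K libraries lay above WT for 29 of the 44 (30.6% of all rows), and both E292V libraries lay below WT for 26 of the 44 (20.6% of all rows). CEACAM6, for instance, was at 513 and 1024 CPM in KO and 697 and 640 in E690K, above the 75.01 and 90.7 CPM of WT, and at 37.3 and 23.9 CPM in E292V. NTS, which encodes neurotensin, went the other way, with 40.8 and 20.8 CPM in WT and 49.2 and 40.5 in E292V, against 6.18 and 5.99 in E690K. Of the 6 lower genes, both E690K libraries lay below WT for 5 and both KO libraries for 4 (26.6% and 21.9% of all rows). Since 5 of the 6 were admitted through the level of other lines, these counts were favoured by the choice. The comparisons with WT share the WT libraries.

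The median change of the 44 higher genes differed in sign between the other 4 pairs. It was smaller there than in L101P, which the choice of the genes in the L101P pair favoured. Whether the changes differ from that of L101P was not tested. For the 44 higher human genes the median log2 change was 1.22 in L101P, 0.41 in the pair labelled KO, 0.02 in WT, -0.10 in E690K and -0.31 in E292V. In the KO pair 42 of the 44 were higher and 2 lower in the library labelled transduced (53% and 47% of all rows), and 4 by 2-fold or more (0.0423%): CEACAM5, MUC5AC, TFF1 and PXDN. None of the 50 human genes was lower there by 2-fold or more (0.0317%). In WT 25 of the 44 were higher (51.2% of all rows), in E690K 33 were lower (48.1%) and in E292V 32 were lower (47.3%). In E292V TFF1 and KRT4 were lower by 2-fold or more (0.0423% of all rows), with log2 changes of -1.58 and -1.01, and of the 50 human genes DPYSL3 and FLRT2 were higher by that much (0.159%), and in WT PXDN, DPYSL3 and FLRT2 were higher by 2-fold or more (0.0846%), PXDN with a log2 change of 1.56.

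**Figure D5:**
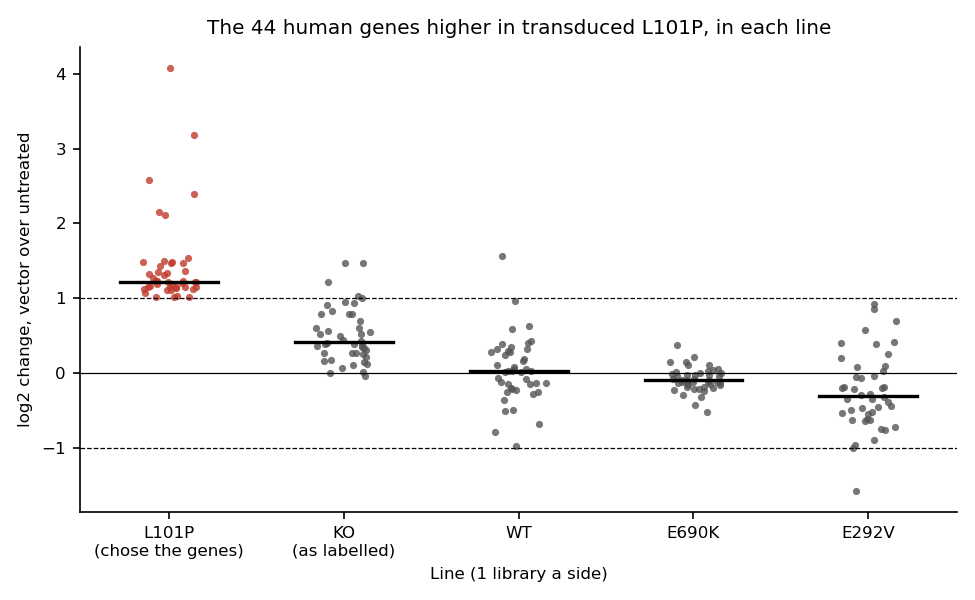
Log2 ratio of transduced over untreated (vertical axis) of the 44 human genes that were at least 2-fold higher in transduced L101P, in each of the 5 lines (horizontal axis, 1 library a side, points spread sideways for legibility), with medians as bars. L101P chose the genes, with a median of 1.22, and the medians of the other lines run from 0.41 in the pair labelled KO to -0.31 in E292V.

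Among the groups of higher genes, the mucus genes had the highest median in KO and the lowest in E292V. The 6 of them (MUC5AC, MUC5B, FCGBP, TFF1, AGR2 and MUC13) had a median log2 change of 1.51 in L101P, 0.64 in KO, 0.19 in WT, -0.11 in E690K and -0.74 in E292V. All 6 were higher in the library labelled KO transduced, and 5 of the 6 were lower in transduced E292V, with FCGBP the exception at 0.20. Medians of the keratin and cornified-cell genes were close to these, at 0.60 in KO and -0.54 in E292V. Those of the adhesion and junction genes were 0.55 and -0.47. Differences between the groups were not tested. The other secreted and matrix genes had medians of 0.39 in KO, 0.05 in WT, 0.02 in E292V and -0.03 in E690K. EFEMP1, an extracellular matrix glycoprotein, was higher in the library labelled transduced of each line, with the KO value resting on labels that ABCA3 and EGFP contradict, by 1.47 in L101P, 0.58 in WT, 0.90 in KO, 0.69 in E292V and 0.37 in E690K.

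Over the 4 lines outside L101P the vector term of the same fit passed an edgeR adjusted p of 0.05 for 5 of the 50 human genes, where 133 of 17731 rows (0.75%) and 1.15% of the 9459 at the level did. Of these 5, PXDN, DPYSL3 and FLRT2 reached the level through lines other than L101P. With the level taken from L101P alone, 2 of 54 genes passed, EFEMP1 and FN1, against 1.12% of rows. EFEMP1 (log2 fold change 0.63, edgeR adjusted p 0.00128), FN1 (0.51, 0.0450) and PXDN (0.96, 0.00409) were higher with the vector in this fit. They were also higher in transduced L101P. The log2 change of FN1 by line was 0.96 in WT, 0.92 in E292V, 0.15 in KO and -0.02 in E690K. That of PXDN was 1.56 in WT, 0.85 in E292V, 1.22 in KO and 0.15 in E690K. DPYSL3 (1.40, edgeR adjusted p 0.00213) and FLRT2 (1.24, 0.00128) were higher in this fit too, whereas both were lower in transduced L101P. Their log2 changes were 1.62 and 1.52 in WT, 2.08 and 1.77 in E292V, 0.27 and 0.73 in KO, and 0.20 and 0.41 in E690K. MUC5AC (0.33, edgeR adjusted p 0.657), TFF1 (0.09, 0.950), CEACAM5 (0.39, 0.527), CEACAM6 (0.14, 0.840) and AGR2 (-0.24, 0.451) did not pass. The KO pair set the sign of 4 of these: without it the log2 fold changes were -0.08 for MUC5AC, -0.36 for TFF1, -0.02 for CEACAM5 and -0.15 for CEACAM6, none of them past the threshold. AGR2 passed in that fit at -0.45 (edgeR adjusted p 5.4e-04), and so did KRT4, NTS and SLPI. The log2 changes of KRT4, NTS and SLPI were below 0 in WT, E292V and E690K, whereas these genes were higher in transduced L101P. Without the WT pair 0 of the 50 genes and 1 row in all passed in edgeR (11 of the 50 with an unadjusted p under 0.05), while the log2 fold changes were 0.65 for EFEMP1, 1.28 for DPYSL3, 1.10 for FLRT2, 0.72 for PXDN and 0.35 for FN1. In DESeq2 the calls on FN1, PXDN and DPYSL3 were lost (DESeq2 adjusted p 0.48, 0.0793 and 0.349), and that on FN1 also with median-ratio factors (edgeR adjusted p 0.0527) and without the E292V pair (0.16). With no filter on low counts MUC5AC, CEACAM5 and AGR2 passed (edgeR adjusted p 2.83e-05, 0.0218 and 3.05e-04), so the calls on these 3 genes depend on that choice. The fit without a term for the line gave 0 calls in edgeR (355 rows, 0 of the 50 genes among them, with an unadjusted p under 0.05).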

How the data were processed

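RNA was sequenced from 10 A549 libraries, 1 for each of 5 lines untreated or transduced. The deposited table holds raw counts per gene from the authors. The submitters' processing notes name GRCh38, featureCounts, Subread, edgeR and limma, with no roles; the annotation, strand setting and handling of read pairs are not given in the sources used here. Of deposited counts from 1 to 10, 81.36% were even, against 51.51% above 1000, so intervals (95%, counting error only) were computed on counts divided by 2. CPM used TMM factors (edgeR 4.0.16, R 4.3.3). Line and vector effects were fitted by edgeR's quasi-likelihood test with Benjamini-Hochberg adjustment to the 8 libraries outside L101P, with 17731 rows left by filterByExpr. Recovery of planted line differences was tried on simulated data, and recovery of vector effects was not. The line served as the pairing of the libraries. DESeq2 1.42.0, other scalings, filters and left-out pairs were alternatives. Named genes were the 12 highest and up to 12 lowest changes (the set held 6), members of the lists and the 3 nearest on each side of the limit; other genes, and the role groups, were chosen after their values were seen. The members and lists were chosen with earlier results of these data known. Positions are from GENCODE 29 on GRCh38.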

Additional observations from a re-analysis of the deposited data

Results flagged for a closer look

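Of 22 sets of 4 values examined, 2 had a value far from the others, where chance gives about 1 in 20. Both were in the pair labelled KO. The log2 change of ABCA3 with the vector was -4.53 there and 0.08 to 0.76 in WT, E292V and E690K. The log2 change of EGFP was -9.57 there and 0.16 to 1.71 in the other 3 lines. No cause was tested.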

How the results depend on the processing

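The set of 51 rows (45 higher, 6 lower) became 88 (71 and 17) at a mean of 5 CPM, 27 (24 and 3) at 20 CPM, 7 (7 and 0) at 3-fold and 240 (191 and 49) at 1.5-fold, and had 1 lower gene with the mean over the L101P libraries. Scaling by library totals shifted each log2 change by -0.05 and gave 48 rows. The line test called 2373 (without E690K) to 3442 rows when each pair was left out, and 45 to 49 of the 50 genes. The vector test called 133 rows and 5 of the 50 genes. It called 451 and 12 with no filter, 207 and 2 in DESeq2, 0 and 0 with no replicate block, and 2 genes with the level from L101P alone (added after seeing the data); leaving out each pair gave 1 (without WT) to 223 (without KO) rows, and 0 to 9 genes. The vector effect on TFF1 was -0.14 in DESeq2. Over the fits without each pair in turn it ran from -1.132 to 0.326 for ABCA3, -0.084 to 0.647 for MUC5AC, -0.361 to 0.369 for TFF1, -0.021 to 0.607 for CEACAM5 and -0.153 to 0.382 for CEACAM6, and the sign opposite to the full fit came without the KO pair. The cause of these shifts was not tested. Depth limits FLRT2 most, with 32 counts in a library.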

Other observations

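Genes with a mean of 1 to 10 CPM lay outside the set. Of 3503, 3187 had at least 100 counts in 1 of the L101P libraries, and of these 139 were at least 2-fold higher and 74 at least 2-fold lower in the transduced library. Past 4-fold there were 12 higher and 0 lower. CREB3L1, a membrane-bound transcription factor of secretory cells on the goblet list, went from 2.71 to 14.1 CPM. TMEM45B went from 0.519 to 4.27 CPM, MMP28, a secreted metalloprotease, from 3.32 to 16.1 CPM, and TSPAN1, a tetraspanin of secretory epithelium, from 1.84 to 8.72 CPM. TPPP3, a tubulin-binding protein, went from 6.94 to 30.0 CPM, PARM1 from 3.52 to 15.2 CPM and the amino acid transporter SLC6A14 from 0.704 to 3.04 CPM. FAT3 went from 0.335 to 1.935 CPM, and its log2 change was 2.68 in WT, 1.89 in E292V, 0.62 in KO and 0.30 in E690K. RNF212 went from 0.335 to 1.425 CPM, both below the 1.592 to 2.248 CPM of the other 8 libraries. On the goblet list MUC2 and BPIFB1 were at 0.335 and 0.352 CPM in untreated and 2.74 and 4.34 CPM in transduced L101P, and CLCA1, SCGB1A1, SCGB3A1 and ERN2 had 0 counts in both. These are values of 1 library a side, with no test.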
